A study of Drosophila melanogaster with 4 samples.

Results

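The subject is the normal transcriptome of the larval salivary gland of Drosophila melanogaster, as seen in the 2 wild-type libraries of a series of 4 samples. The libraries were chosen by genotype alone, and genes were ranked by CPM, the count of a gene divided by the library total and scaled to 1000000. Both hold total RNA of glands dissected from wild-type larvae in the third instar, raised in a 25 °C incubator. No transgene, driver or treatment is given for them, and the sources used here do not give strain, sex, hour within the instar or number of animals. The other 2 samples are a JIL-1 null mutant and were not compared here. Library 1 held 6222322 counts and library 2 held 8496047 counts, over 9931 listed genes. A level of 3 counts equals 0.482 CPM in library 1 and 0.353 CPM in library 2, and 9448 and 9638 genes had a count. Nothing says whether the libraries came from separate sets of larvae, and a single group of 2 allows no test, so all values are descriptions. Paired values are those of library 1 and library 2.

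The salivary gland of the larva is a pair of tubes of giant secretory cells whose chromosomes are polytene. Late in the third instar the cells make glue, a mixture of heavily glycosylated mucins and small cysteine-rich proteins, store it in granules and expel it at pupariation, when it fixes the pupa to its support. Glue synthesis depends on the steroid hormone ecdysone and on gland factors such as fork head and sage. The markers of the gland were checked first. Sgs3 had 73215 CPM in library 1 and 59063 CPM in library 2, and Sgs4 had 60912 and 53283 CPM. Sgs5 had 67141 and 85178 CPM and Sgs7 had 54630 and 75233 CPM. The gland factors sage and CrebA had 892 and 729 CPM and 532 and 404 CPM. All 6 gland markers were among the abundant transcripts of both libraries.

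Glue and intermoult secretion genes took the largest share of reads among the gene classes. The 12 listed genes held 35.6% of the counts of library 1 (exact Clopper-Pearson 95% interval 35.56% to 35.64%, counting error only) and 37.96% of library 2, a mean of 36.8% ± 1.67 (SD, n = 2). Set per kilobase of merged exon, which removes the advantage of long transcripts, the class held 56.7% of the transcript signal on average. Genes known only by a number, 3428 in all, took 13.3% and 12.97% of the counts. The 86 cytosolic ribosomal proteins took 8.41% and 8.79%, larval serum and fat body proteins took 6.06% and 6.50%, and translation factors took 2.49% and 2.47%. Per kilobase the mean share of larval serum and fat body proteins was 2.31%, against 6.28% of the counts. The plot of class shares shows the same order in both libraries for these large classes.

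**Figure D1:**
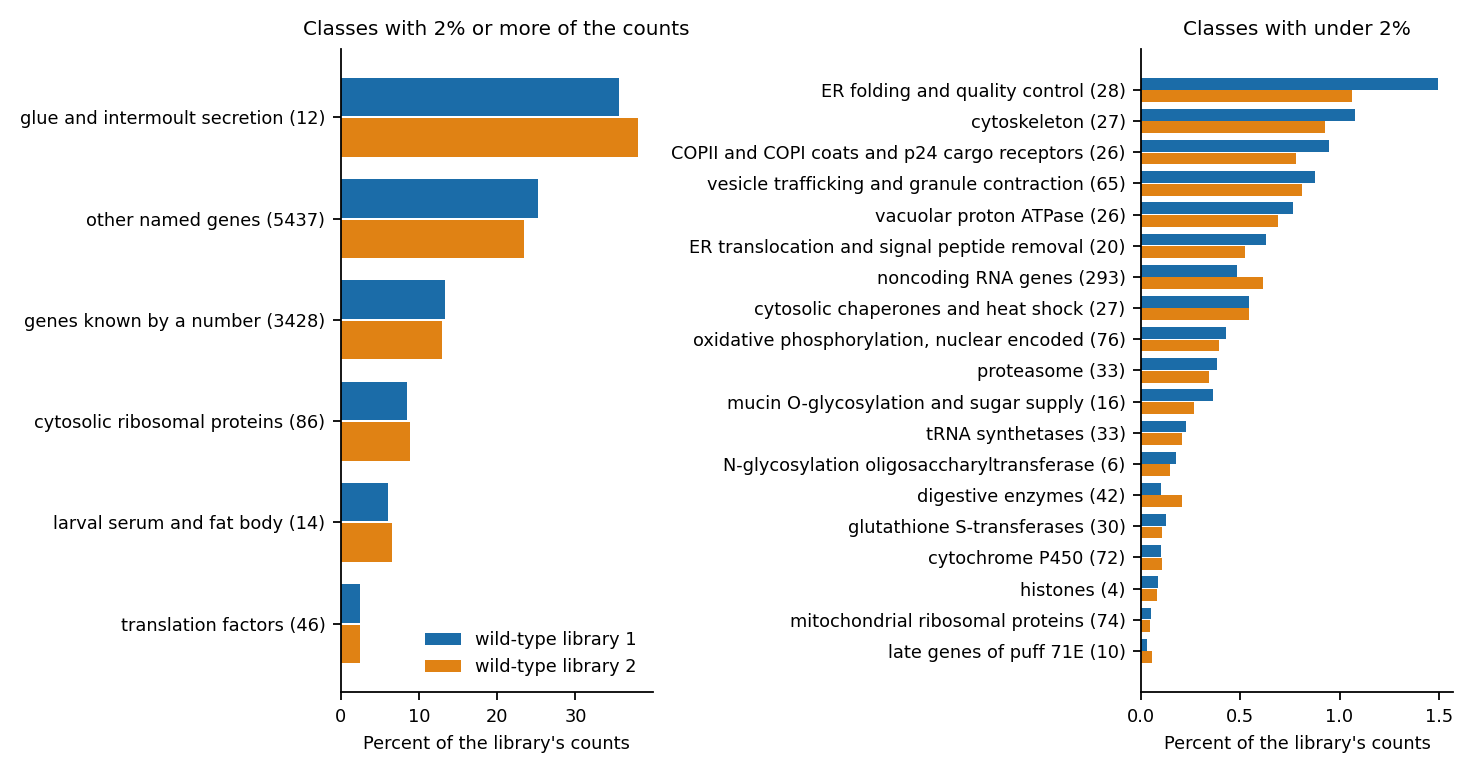
Percent of each wild-type library's counts in each gene class, with the number of genes of the class in brackets and 1 bar per library (library 1 blue, library 2 orange). Glue genes stood at 35.6% and 37.96%, and ER folding genes, the longest bars of the right panel, at 1.5% and 1.06%.

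The reads were concentrated in few genes. In both libraries 4 genes held 25% of the counts, and 33 genes in library 1 and 23 in library 2 held 50%. To reach 90% took 1790 and 1680 genes. The 5 most abundant genes, Sgs5, Sgs3, Sgs7, Eig71Ee and Sgs4, held 31.5% and 33.2% of the counts, and the 20 most abundant held 46.5% and 49.3%. Per kilobase of merged exon, 6 genes in library 1 and 5 genes in library 2 held 50% of the signal. Below these genes the transcriptome was broad, with 1102 and 1021 genes at or over 100 CPM.

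**Figure D2:**
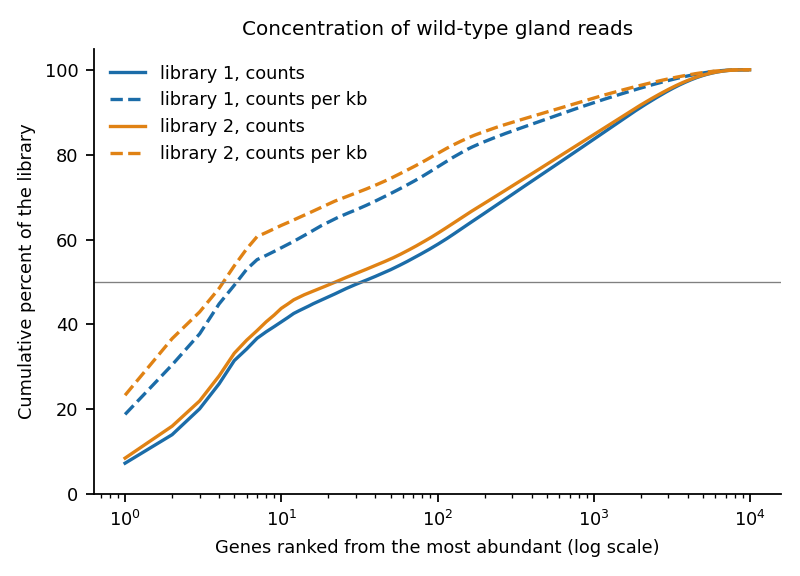
Cumulative percent of each library held by genes ranked from the most abundant, on a log axis, for counts (solid) and for counts per kilobase of merged exon (dashed), with a grey line at 50%. The solid lines pass 50% at 33 genes in library 1 and 23 genes in library 2, and the dashed lines at 6 and 5 genes.

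Among the glue genes, the per-length order differed from the read order. On the scale of CPM per kilobase of merged exon, averaged over the libraries, Sgs7 stood at 202279, Sgs5 at 119748, Sgs4 at 59977, Sgs3 at 59639, Sgs8 at 48503 and Eig71Ee at 39852. Sgs7 and Sgs8 encode small cysteine-rich glue proteins, and their short transcripts collect few reads per molecule. Sgs1, which encodes a very large repetitive mucin, had 25377 and 20636 CPM but 5825 per kilobase. Sgs8 had 12165 CPM in library 1 and 22660 CPM in library 2, while Eig71Ee, a glue gene of the ecdysone puff 71E, had 58978 and 59463 CPM. Of the 7 glue genes with the most reads, Sgs8 differed most between the libraries and Eig71Ee least. Sgs7 and Sgs8 are related in sequence, as are Sgs5 and its neighbour CG7587 (now Sgs5bis), so the split of reads within these pairs is uncertain.

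The remaining members of the class were lower. The pre-intermoult gene ng3 had 2675 and 1428 CPM and CG7587 had 640 and 2620 CPM. The ng1 gene had 127 and 44.0 CPM, ng2 had 122 and 38.8 CPM, and ng4 had 1 count in each library, under the limit of 3 counts. The ng genes are expressed in the gland before the glue genes in normal development. The 3 detected ng genes were all higher in library 1, and CG7587 was higher in library 2.

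Several glue genes lie beside other abundant genes of the gland, with silent or weak genes next to them (gene order from RefSeq Release 6, matched by gene symbol). Sgs8, Sgs7 and Sgs3 are near neighbours on arm 3L, and the gene between Sgs7 and Sgs3, CG33272, had 0.964 and 1.65 CPM. On 3L, Eig71Ee lies within the late genes of puff 71E. Its neighbour Eig71Ed had 34.1 and 67.4 CPM, Eig71Ef had 1.29 and 8.83 CPM, and Eig71Ei had no count in either library. Sgs4 on the X lies next to Pig1, with 834 and 1017 CPM, and close to the ng genes and CG14265, with 3834 and 2139 CPM. Sgs5 on 3R lies between CG7587 and CG7606, the second of which had 3425 and 3053 CPM. Of the 60 most abundant genes outside the ribosomal proteins, 59 could be placed in gene order. Of those, 15 fell in 5 clusters whose members lay within 10 genes of each other. One cluster held only ERp60 and Ef1alpha48D, neither of them a glue gene. The same count was not made for other genes, so clustering cannot be read as a trait of abundant genes.

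**Figure D3:**
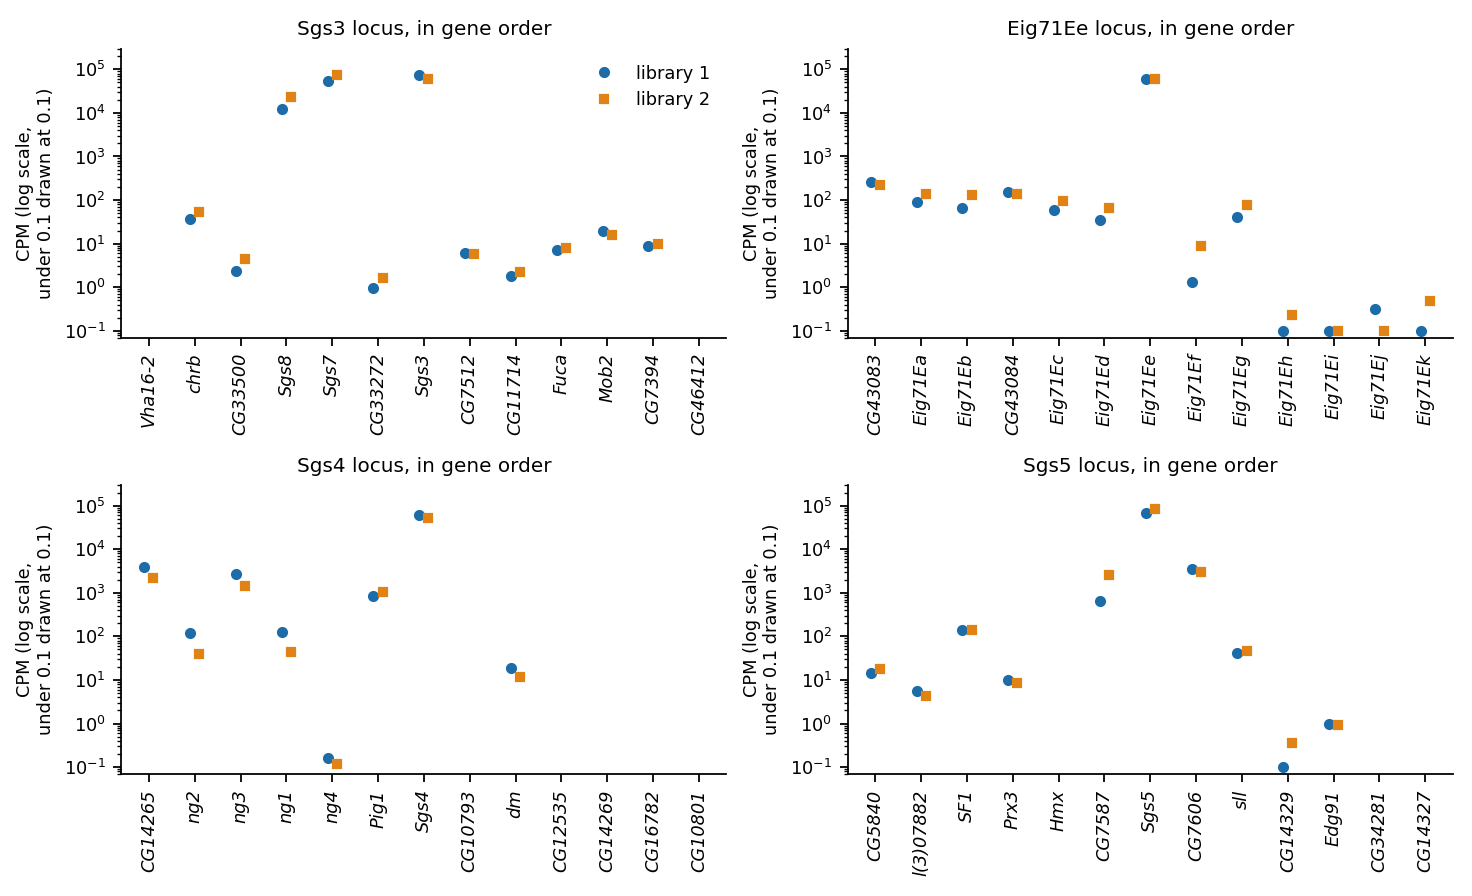
CPM (log axis) of the genes around Sgs3, Eig71Ee, Sgs4 and Sgs5 in chromosomal order, with circles for library 1 and squares for library 2, values under 0.1 drawn at 0.1, and no point for genes not analysed here. Sgs3 at 73215 and 59063 CPM stands 1 step from CG33272 at 0.964 and 1.65 CPM.

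Several abundant genes carry no name. CG12310 on 3L had 11234 and 15891 CPM, the tenth rank by reads and 24931 per kilobase. It lies in a row with CG43679, at 1385 and 2330 CPM, and CG13460, at 3603 and 3475 CPM. CG6770 had 6531 and 6222 CPM, CG12715 had 5679 and 4021 CPM, and CG42460 had 3697 and 3643 CPM. These unnamed genes stood at the level of the most abundant cellular genes. Among named genes, Obp99b, of the odorant-binding protein family, had 5375 and 5654 CPM. Act5C, a cytoplasmic actin with a close relative in Act42A, had 5311 and 4340 CPM. Thor, the translation repressor 4E-BP, had 1540 and 1477 CPM.

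Machinery for making and moving secreted proteins took 4.48% of the counts in library 1 and 3.59% in library 2 (mean 4.04% ± 0.632, SD, n = 2), over 161 genes in 6 lists. Outside the glue genes the share was 6.96% and 5.79%. Per kilobase of merged exon the mean share was 2.06%. In the endoplasmic reticulum (ER), Pdi, a protein disulphide isomerase, had 4355 and 3143 CPM. Hsc70-3, the ER chaperone BiP, had 3489 and 2087 CPM, and ERp60, another disulphide isomerase, had 1293 and 967 CPM. Calreticulin (Crc in the table, now Calr) had 1195 and 887 CPM, and Gp93, the ER homologue of Hsp90, had 880 and 619 CPM. All 5 stood higher in library 1, by more than counting error. Of the 28 ER folding genes, all had a mean of at least 5 CPM and 25 were higher in library 1, with a median log2 ratio of library 1 over library 2 of 0.37. Over all 6080 genes at that level the median was 0.12, so list medians are to be read against 0.12. With a positive median, most of these genes were higher in library 1. The exact share is not given here, so counts of members higher in a library are descriptions without a background.

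Entry into the ER was served by TRAM, at 860 and 770 CPM, and by Sec61alpha, the channel subunit, at 711 and 474 CPM. A signal peptidase subunit, twr, had 624 and 544 CPM. All 20 translocation genes had at least 5 CPM, 19 of them were higher in library 1, and their median log2 ratio was 0.29. For N-linked glycosylation, the catalytic subunit OstStt3 had 501 and 384 CPM. In the coats that carry cargo between ER and Golgi, Arf79F, the GTPase that recruits the COPI coat, had 957 and 777 CPM. KdelR, the retrieval receptor of ER proteins, had 735 and 687 CPM, the COPI subunit betaCop had 650 and 501 CPM, and the COPII subunit sec23 had 630 and 519 CPM. Of 26 coat and cargo receptor genes 24 were higher in library 1, with a median of 0.27.

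Glue mucins are O-glycosylated by GalNAc transferases. GalNAc-T1 (now Pgant1) had 739 and 503 CPM, CG30463 (now Pgant9) had 691 and 510 CPM, and pgant5 had 597 and 394 CPM. In contrast pgant3 had 49.7 and 54.5 CPM and C1GalTA, which extends the first sugar, had 17.8 and 26.7 CPM. Of 16 mucin glycosylation genes analysed, 12 reached 5 CPM, with a median log2 ratio of 0.32, and CG30036, CG7579 and CG7304 were at 0. Per kilobase the levels of GalNAc-T1, CG30463 and pgant5 were 224, 98.4 and 109. Later steps were also represented. The non-muscle myosin heavy chain zip, part of the actomyosin that squeezes granules at secretion, had 2167 and 1958 CPM, and its light chain sqh had 896 and 952 CPM. Clathrin heavy chain (Chc) had 787 and 708 CPM, Rab11 had 468 and 418 CPM, and the proton pump subunit Vha16-1 had 1714 and 1389 CPM.

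Genes of protein synthesis were the next named class by reads. Among ribosomal proteins RpS3A had 2476 and 2411 CPM, RpL3 had 2172 and 2001 CPM, and RpL5 had 1834 and 2271 CPM. All 86 ribosomal genes reached 5 CPM, and 62 were lower in library 1, with a median log2 ratio of -0.06. Ef1alpha48D, the elongation factor that brings charged tRNA to the ribosome, had 9680 and 9842 CPM, and its near-identical copy Ef1alpha100E makes that value uncertain. Ef2b (now eEF2) had 3322 and 3203 CPM and eIF-4a had 1912 and 2018 CPM. These 3 translation factors differed little between the libraries. The 76 nuclear genes of oxidative phosphorylation together held 0.425% and 0.391% of the counts, and the 74 mitochondrial ribosomal proteins 0.0512% and 0.0451%.

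The 114 transcription factors analysed, taken from chosen lists and not a full set, held 1.10% and 0.995% of the counts. Of these, 94 had a mean of at least 5 CPM and 27 at least 100 CPM. Of the 20 with the most reads, 14 overlapped the next in the order over the 2 libraries, so the order among neighbours is mostly within the spread. Per kilobase of merged exon, the bHLH factor sage led those listed at 568, followed by Xbp1 at 265 and crc at 224. Next came CrebA at 104, Sox14 at 80.7 and Jra at 74.9. The gene br, which encodes the Broad zinc finger factors, had 907 and 818 CPM but no merged exon length to set it on this scale.

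Of 11 gland identity factors analysed, all reached 5 CPM. After sage and CrebA, which activates genes of the secretory pathway, came tai, a steroid receptor coactivator, with 223 and 197 CPM. The FoxA factor fkh had 166 and 117 CPM and the zinc finger factor sens had 121 and 76.0 CPM, both higher in library 1. The Pax family gene eyg had 78.3 and 82.6 CPM. Among the factors that specify the gland in the embryo, the Hox gene Scr had 9.64 and 9.77 CPM and its cofactor hth had 11.2 and 6.94 CPM. Its other cofactor, exd, had 88.7 and 72.0 CPM.

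Ecdysone response factors were the most read of the factor lists, with 21 of 24 at or over 5 CPM. Besides br, the Ets factor Eip74EF had 685 and 611 CPM and the nuclear receptor Eip75B had 468 and 466 CPM. The Sox factor Sox14 had 314 and 264 CPM, the nuclear receptor Eip78C had 287 and 276 CPM, and EcR, the ecdysone receptor itself, had 241 and 220 CPM. The late genes of puff 71E other than Eig71Ee had far fewer reads than it, with 67.2 and 132 CPM for Eig71Eb and 60.3 and 96.0 CPM for Eig71Ec. All 6 of these late genes at or over 5 CPM were lower in library 1, with a median log2 ratio of -0.94.

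Of the 7 regulators of the unfolded protein response, crc and Xbp1 had the most reads. The bZIP factor crc (ATF4 of flies, distinct from Crc above) had 713 and 819 CPM, and Xbp1, the target of the ER sensor Ire1, had 588 and 548 CPM. Ire1 itself had 59.5 and 39.8 CPM, PEK, another ER sensor, had 40.7 and 37.4 CPM, and the transcription factor Atf6 had 43.1 and 41.1 CPM. Among growth and signalling factors, cnc had 132 and 132 CPM, Jra, the fly Jun, had 113 and 133 CPM, and E2f, which drives the endocycle, had 127 and 95.1 CPM. Among chromatin-associated factors, lola had 257 and 279 CPM and mod(mdg4) had 109 and 102 CPM. Of 20 analysed developmental factors of other tissues, 5 reached 5 CPM. Mef2 led with 146 and 110 CPM, srp had 41.6 and 41.1 CPM, and cad and repo had no count.

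**Figure D4:**
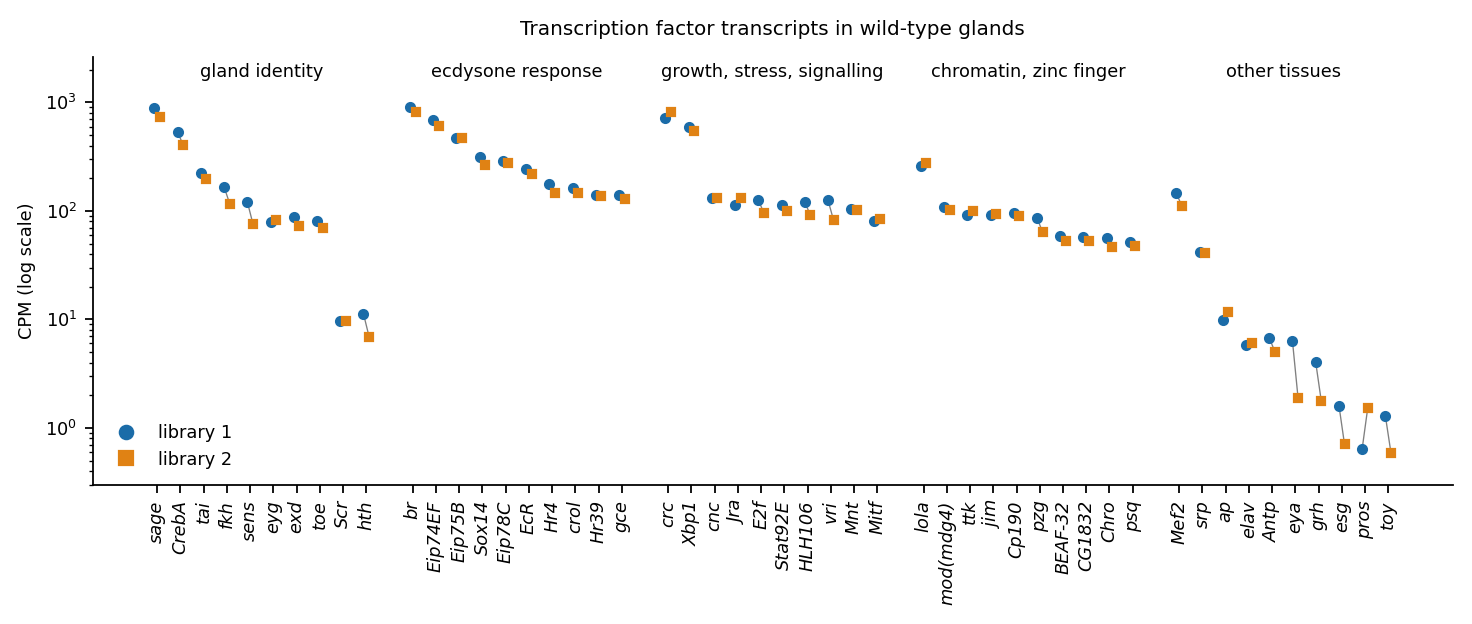
CPM (log axis) of up to 10 transcription factors with the most reads in each of 5 lists, circles for library 1 and squares for library 2, joined by a line. In the gland identity list sage stands at 892 and 729 CPM and Scr at 9.64 and 9.77 CPM.

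The polytene cells pass through endocycles, in which DNA is copied without division. Of 22 endocycle and replication genes 19 reached 5 CPM, and the list summed to 476 and 342 CPM. RnrS, a ribonucleotide reductase subunit, had 69.0 and 46.7 CPM. All 19 were higher in library 1, as were most genes at that level, with a median log2 ratio of 0.44 against 0.12. Of 13 mitotic regulators 3 reached 5 CPM, and the list summed to 59.8 and 34.6 CPM. The kinase polo had 15.4 and 11.9 CPM, while CycB had 25 counts in library 1 and 3 in library 2.

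Genes of dosage compensation were measured beside the chromosome arms. The noncoding RNA roX1, part of the complex that raises X transcription in males, had 234 and 312 CPM, roX2 had 11.7 and 20.5 CPM, and msl-2 had 16.1 and 13.7 CPM. JIL-1, the kinase removed in the mutant of the series, had 95.9 and 71.6 CPM. Among genes whose mean CPM was at least 5, the median level per kilobase was 10.1 on the X (1024 genes), 12.6 on 2L, 11.7 on 2R, 12.8 on 3L, 11.5 on 3R and 17 on chromosome 4 (55 genes). The X median was 0.850 of that of the large autosomal arms in library 1 and 0.831 in library 2. Arm 3L held 36.3% and 38.4% of all counts, and 25.5% and 26.9% of those outside the glue genes.

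Transcripts typical of other tissues were also present. Fat body markers summed to 60297 and 64755 CPM over 13 genes. Fbp1, the receptor by which fat body takes up larval serum proteins, had 27305 and 30766 CPM. The storage proteins Lsp2, Lsp1beta and Lsp1alpha had 15201 and 15849, 10098 and 10128, and 4117 and 4371 CPM, whereas Lsp1gamma had 7.55 and 7.06 CPM. The Lsp1 genes are close relatives, so reads may be split unevenly among them. In bulk tissue, fewer cells of a type and less RNA per cell cannot be told apart, and the part of attached fat body in these values was not tested. Haemocyte markers summed to 331 and 337 CPM over 12 genes, led by the collagen Cg25C at 131 and 149 CPM. Most of that sum came from Cg25C, crq, vkg and srp. The other members, among them Hml at 3.70 and 2.12 CPM and eater at 0.804 and 0.471 CPM, all had means under 5 CPM. Muscle markers summed to 1008 and 878 CPM over 15 genes, of which Tm1 made up 595 and 580 CPM.

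Midgut markers differed most between the libraries, with 114 CPM in library 1 and 967 CPM in library 2 over 20 genes, Amy-p being at 0 in both. The digestive protease Jon65Aiv had 4.02 and 284 CPM, while Mal-A6 had 61.4 and 61.4 CPM. Neuron markers summed to 53.7 and 64.4 CPM over 7 genes, with the glial factor repo at 0 and Syt1 at 44.2 and 56.5 CPM. Cuticle and trachea markers summed to 1060 and 1077 CPM over 8 genes, of which Cpr49Ac made up 985 and 1048 CPM. Testis markers summed to 2.09 and 2.35 CPM and ovary markers to 2.57 and 2.94 CPM, with osk and Vm26Aa at 0.

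Most genes had similar levels in the libraries. Across 6080 genes whose mean CPM was at least 5, which hold 99.4% of the counts, log2 CPM had a Pearson r of 0.957 as a description, and 59.8% of genes lay within 1.2-fold. Sampling noise alone would give a chi-square equal to its degrees of freedom, and the ratio of the 2 was 30.8. Genes with many counts, such as the glue genes, weigh most in this pooled ratio, so it does not describe the typical gene. At least 2-fold differences were seen for 73 genes higher in library 1 (1.2% of genes) and 65 higher in library 2 (1.07%), 138 in all (2.27%). With TMM factors or DESeq2 size factors, which remove most of the shift of 0.12, the split was 64 against 86. Of the 101 genes at or over 1000 CPM, 1 was among them, CG7587. Of the 1152 genes between 5 and 10 CPM, 66 were, or 5.73%.

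Genes higher in library 1 included 4 of the 10 muscle markers at this level and 2 cuticle genes, against 1.2% of all genes. The muscle gene Mf and the 2 cuticle genes were under 5 CPM in library 2 and passed the filter only through library 1. The rest of the 10 muscle markers, led by Tm1 at 595 and 580 CPM, differed less than 2-fold. Lcp1, a larval cuticle protein, had 84 counts in library 1 and 2 in library 2, a ratio of CPM, from the counts as they stand, of 57.3 (exact conditional binomial 95% interval 15.4 to 481, counting error only). Lcp4 had 87 and 4 counts, a 29.7-fold difference. ImpE2, an ecdysone-inducible gene of imaginal discs, had 118 and 12 counts, 13.4-fold. The disc genes ft, ptc, N, kek1, tnc and dp were all higher in library 1, 6 of the 8 at this level. All 6 were under 5 CPM in library 2 and so passed the filter on the mean only through library 1. The rest of the 8, sd at 45.3 and 46.7 CPM and ci at 17.2 and 15.1 CPM, differed less than 2-fold. The disc list was also made after the values were seen, so the count of 6 only describes it. Act57B, Mf, Mhc and up were the muscle genes. The disc gene tnc had 59 and 5 counts, 16.1-fold, and the muscle gene Mf had 57 and 20 counts, 3.89-fold. CG15741 had 368 and 10 counts, 50.2-fold, and CG14850 had 216 and 14 counts, 21.1-fold. Obp56d, of the odorant-binding protein family, had 107 and 19 counts, 7.69-fold. The cytochrome P450 gene Cyp28c1 had 57 and 16 counts, 4.86-fold, and the glutathione S-transferase gene GstD10 had 111 and 37 counts, 4.10-fold.

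Antimicrobial peptides, the effectors of humoral immunity, were listed after the values were seen, as were the disc genes and the heat-inducible genes. They were at least 2-fold higher in library 1 for 6 of 11 genes and as far in the other direction for 1. Dpt, the peptide diptericin, had 177 and 42.4 CPM, a 4.18-fold difference (3.71 to 4.72). Dro, drosocin, had 27.6 and 3.06 CPM, 9.03-fold, and Drs, drosomycin, had 75.2 and 29.5 CPM. AttD ran the other way with 12.4 and 33.3 CPM. Among members under 5 CPM, CecB had 5 and 34 counts, CecA2 had 4 and 17, and CecA1 had 10 and 23. These cecropins had higher CPM in library 2, while Def, at 13 and 15 counts, was slightly higher in library 1. AttA and AttB are near-identical, so their values are not independent. The median log2 ratio of the 11 was 1.12, and that of all genes 0.12. Because the list was made after the values were seen, its counts and median only describe it.

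Genes higher in library 2 were led by digestive enzymes, 12 of the 65. That list had 19 genes at or over a mean of 5 CPM, and all 12 passed it only through library 2. The rest of the 19, such as LysP at 35.2 and 31.7 CPM, differed less than 2-fold. Members of the list under 5 CPM went both ways, with Jon99Fi at 16 and 1 counts and LysE at 5 and 69 counts. Jon65Aiv, at 25 and 2415 counts, was 70.7-fold higher in library 2 (47.8 to 110). Jon65Aiii had 15 and 921 counts, 45-fold, and betaTry had 5 and 575 counts, 84.2-fold. Jon74E had 3 and 811 counts, a ratio of library 2 over library 1 of 198 (67.5 to 962), and LysB had 1 and 628 counts, a ratio of 459.9 (82.2 to 18195), both from the counts as they stand. By the same ratio alphaTry, at 1 and 478 counts, stood at 350.1 (62.5 to 13856), and CG7715, at 1 and 308 counts, at 226 (40.2 to 8938). All 4 of these genes had at most 3 counts in library 1. Among other genes, CG43896 had 3 and 482 counts, yip7 had 4 and 482 counts, and Muc96D had 7 and 432 counts. The lysozyme genes LysC and LysS had 10 and 648 counts and 3 and 201 counts. The trypsins alphaTry and betaTry, and the lysozymes LysB, LysC and LysD, are near-identical within each set, so their counts may be shared. Of 13 midgut markers at or over a mean of 5 CPM, 11 were at least 2-fold higher in library 2, against 1.07% of all 6080 genes. All 11 were under 5 CPM in library 1 and passed the filter only through library 2, so the count only describes them. The part of midgut tissue in these values was not tested.

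Several heat-inducible genes also stood higher in library 2, but not the most read ones. Hsp68, a heat shock chaperone, had 22.8 and 74.7 CPM, the noncoding RNA Hsromega had 175 and 389 CPM, and the cochaperone stv had 72.5 and 172 CPM. Of 10 such genes at or over 5 CPM, 9 were lower in library 1, with a median log2 ratio of -0.81. The 9 include the Hsp70 copies Hsp70Bb, at 70 and 191 counts, and Hsp70Ba, at 68 and 180 counts, whose reads may be shared. This list too was made after the values were seen, so these values only describe it. Hsp23 and Hsp83, counted among the 9, were nearly equal in the libraries, at 1569 and 1584 CPM and at 882 and 885 CPM. Hsp27, the exception, had 792 and 733 CPM. Hsp23, Hsp83 and Hsp27 had the most reads of the list. The plot of one library against the other places these groups beside all genes.

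**Figure D5:**
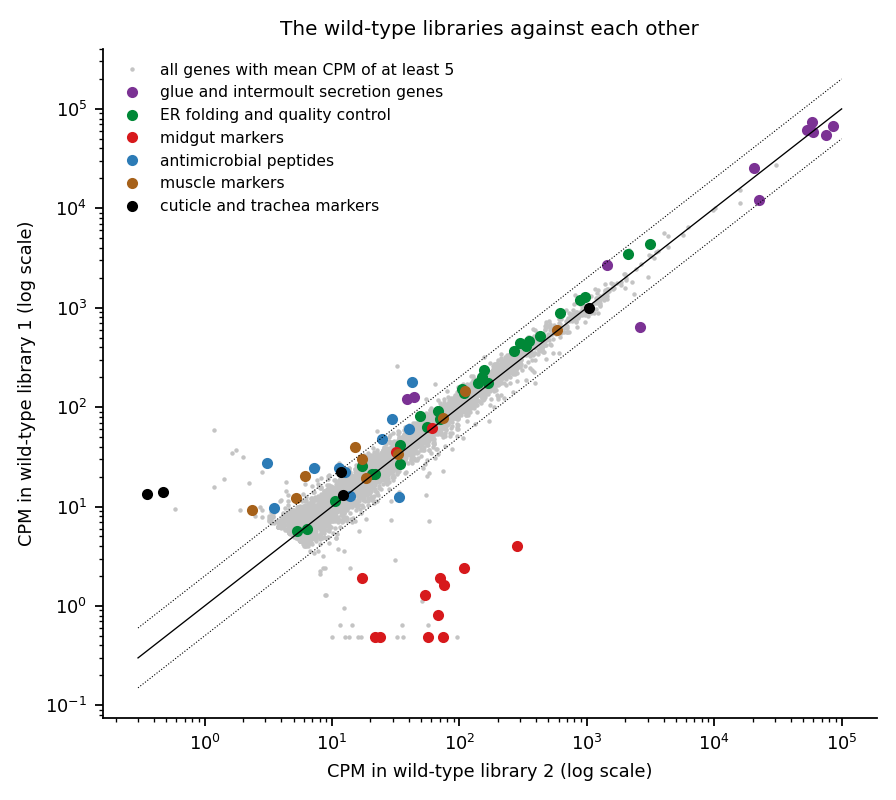
CPM in library 1 (vertical) against library 2 (horizontal) for genes whose mean CPM was at least 5, on log axes, with counts under 3 set to 3 and dotted lines at 2-fold. Most midgut markers, red, lie far under the diagonal, with Jon65Aiv at 4.02 CPM in library 1 and 284 CPM in library 2, and glue genes lie at the upper end.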

How the data were processed

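RNA-seq of salivary glands from wild-type larvae was examined in 2 libraries. Reads were aligned with GSNAP to BDGP5/dm3, per the submitters' processing notes, and no source used here names the counter, the annotation or the use of strand. Per the file headers, the raw count of each gene is the authors' own deposited value. The deposited RPKM of the wild type, the deposited fold or ratio and the deposited p-value columns were made by the authors, per the file headers. The RPKM was used only to derive the length it implies, and the ratio and p-values were not used. CPM were computed from the column totals. Levels per kilobase used merged exon lengths of Ensembl release 115 (BDGP6.54), matched by identifier for 9523 genes and by symbol for 320, with 88 unmatched. Merged exons were used because the RPKM of genes with several transcripts was, in the median, close to counts over the summed transcript lengths. No coordinates are given, since that build differs from the authors'.

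Shares have exact Clopper-Pearson 95% intervals and ratios exact conditional binomial intervals, which cover counting error only. To count and rank genes between libraries, counts under 3 were set to 3, while a printed ratio that rests on 1 to 3 counts uses the counts as they stand. Genes whose mean CPM was at least 5 and whose CPM differed at least 2-fold were counted. No test was run. TMM factors (edgeR 4.0.16, 1.043 and 0.959) and DESeq2 1.42.0 size factors (0.893 and 1.12) in R 4.3.3 served as alternatives. The ratio procedure was tested on simulated data. Members and lists were chosen with earlier results of these data known. After values were seen, Prosap, Cyp1, sesB, Cct1 and Cct2 were taken out of lists that a name pattern had put them in, and the antimicrobial, heat-inducible and disc lists were added. Named genes were taken from the 20 most abundant, the leading members of each class and list, and the 10 largest ratios in each direction with a symbol and 2 with a number. Not all leading members of the smaller classes and lists are named, and others were added for context after their values were seen.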

Additional observations from a re-analysis of the deposited data

How the results depend on the processing

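Depth of 2 libraries and the lack of replicate groups limit the text to descriptions. No paired analysis was possible because no result comes from a test and the libraries belong to 1 group. The promoter comparison planned for the most abundant genes was not run, since no promoter sequence was at hand. Leaving out each library gave 35.6% to 37.96% for glue genes, 8.41% to 8.79% for ribosomal proteins, 6.06% to 6.50% for fat body proteins, 1.06% to 1.5% for ER folding genes, 3.59% to 4.48% for secretory machinery, 23 to 33 genes for 50% of the counts (28 on the mean of both), 19 of the 20 most abundant genes kept, and 0.831 to 0.850 for the X ratio. Per length, the lengths implied by the deposited RPKM and the merged exons (merged exons were chosen after seeing the data) gave 60.9% and 56.7% for glue genes, 2.05% and 2.31% for fat body proteins, 0.467% and 0.565% for ER folding, 1.80% and 2.06% for secretory machinery, and 4 and 5 genes for 50%. Ribosomal proteins came to 10.0028% with merged exons, and 6 of the 10 leading transcription factors stayed among the first 10 with implied lengths. Genes at least 2-fold apart numbered 571 (313 higher in library 1, 258 in library 2) at a mean of at least 1 CPM, 39 (11 and 28) at 20 CPM, and 836 (494 and 342) with no filter. They numbered 538 (349 and 189) at 1.5-fold and 50 (16 and 34) at 4-fold. The split of 73 against 65 became 64 against 86 with TMM factors or DESeq2 size factors, and 66 against 70 with totals without glue genes. The log2 ratio of summed markers, library 1 over library 2, was -3.21 for midgut with TMM factors against -3.09. For muscle it was 0.077 with TMM factors and 0.14 without glue genes, against 0.20, and for fat body -0.22 and -0.16, against -0.10. The X ratio was 0.878 at 1 CPM and 0.759 at 20 CPM, against 0.838. The larger side of the 2-fold split was therefore library 1 in the counts as given, at 1 CPM, with no filter and at 1.5-fold, and library 2 under the other alternatives. The cause of these shifts was not tested, and the log2 ratios of summed markers kept their sign.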

Other observations

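Some gene groups outside the classes above were also well expressed. The noncoding RNA CR42862 had 2041 CPM in library 1 and 3016 CPM in library 2, more reads than any other noncoding gene analysed. GstD1, a glutathione S-transferase, had 655 and 466 CPM, and the cytochrome P450 gene Cyp4d1 had 121 and 177 CPM. Of 20 autophagy and cell death genes analysed, 18 had a mean CPM of at least 5, led by Atg8a, a marker of autophagosomes, at 274 and 286 CPM. The caspase inhibitor th (now Diap1) had 163 and 184 CPM.

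The deposited wild-type RPKM of genes with 1 transcript implied a length 1.01 times the merged exon length (median over 1268 genes). For genes with 4 or more transcripts the ratio was 3.49 (1238 genes), while the ratio to the summed transcript lengths was 0.972. These are medians. Only 41.3% of those genes, and 47.7% of genes with 2 or 3 transcripts, lay within 2% of the summed transcript length. A ranking by that RPKM therefore places genes with many transcripts lower than a ranking per merged exon length.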
